A study of Mus musculus with 18 samples.

Results

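Cells cultured from mouse lung microvessels were treated with recombinant interleukin-4 (rIL-4, 50 ng/mL) or with vehicle for 24 h, and their RNA was hybridised to Illumina bead arrays. The comparison takes every array whose source is given as endothelial cells, which is 6 of the 18 arrays of the series, 3 with rIL-4 and 3 with vehicle. The other 12 arrays hold whole lung of wild-type and IL-4 knockout male mice, 8 to 12 weeks old, kept at low oxygen or in room air. The series asks how IL-4 takes part in vascular inflammation of the hypoxic lung, and the cell experiment asks which genes rIL-4 alone moves in vessel cells.

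Both cell groups came from wild-type female C57BL/6 mice 4 to 6 weeks old and were used at passages 3 to 5. As far as the labels say, the groups differ in rIL-4 against vehicle and in the numbers of their sample titles. The titles number each group in a separate run, so an effect of sample order cannot be told apart from that of rIL-4. The labels do not say whether the 3 arrays of a group came from separate cultures or animals. The p-values therefore measure the spread between these arrays, which may be technical. Only 1 dose and 1 time were measured.

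Interleukin-4 comes mainly from T helper 2 cells, mast cells and basophils and drives allergic and anti-helminth responses. On many cell types it binds a receptor that signals through Janus kinases to the transcription factor STAT6. In structural cells such as endothelium and fibroblasts, IL-4 is best known for raising eotaxins and other CC chemokines, and in human endothelial cells for raising the adhesion molecule VCAM-1.

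The 6 arrays detected between 45.1% and 46.9% of probes, and their median signals lay between 52.3 and 59.4 intensity units. Correlations within a group lay between 0.9891 and 0.9949, and 0 pairs of arrays held identical values. The lowest of these correlations, between rIL-4 arrays 1 and 2, was below the highest correlation of either array with a vehicle array (0.9899 and 0.9911).

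The label of the cells was checked against 50 genes of endothelial identity, of which 48 had a probe. Only 11 of the 48 were detected on all 6 cell arrays, and 30 were detected on 0 of 6, whereas 45 were detected on all 12 lung arrays. Cdh5, the adhesion protein of endothelial junctions, had deposited signals of 47.2, 42.8 and 42.4 in rIL-4 cells and 50.4, 42 and 44.1 in vehicle cells, at background, against 847 to 1575 in lung. The angiopoietin receptor Tek, the clotting factor carrier Vwf, the surface mucin Emcn and the transcription factors Erg and Sox17 were likewise detected on 0 of 6 arrays. The brightest probe of Pecam1, the most widely used endothelial surface marker, was detected on 0 of 6.

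Genes of mesenchymal cells were detected more often. Of 20 fibroblast and mesenchymal genes with a probe 13, and of 16 smooth muscle and pericyte genes with a probe 10, were detected on all 6 arrays. Acta2, smooth muscle actin, had signals of 32996 to 41407 in rIL-4 cells and 35613 to 41138 in vehicle cells. The collagen genes Col1a1, Col1a2 and Col3a1 and the growth factor receptors Pdgfra and Pdgfrb were detected on every cell array. Several genes that endothelial cells also use, among them Eng, Flt1, Egfl7, Cav1 and Thbd, were detected on all 6 arrays too. Markers of blood cells were mostly at background, with 0 of 15 lymphocyte genes, 0 of 17 granulocyte and mast cell genes and 4 of 18 macrophage genes detected on all 6 arrays. The measured markers thus do not bear out the endothelial label, and the samples are called the cultured cells here. Which cell types the culture held was not tested, and the adhesion and vessel-wall genes below are read under this limit.

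**Figure D1:**
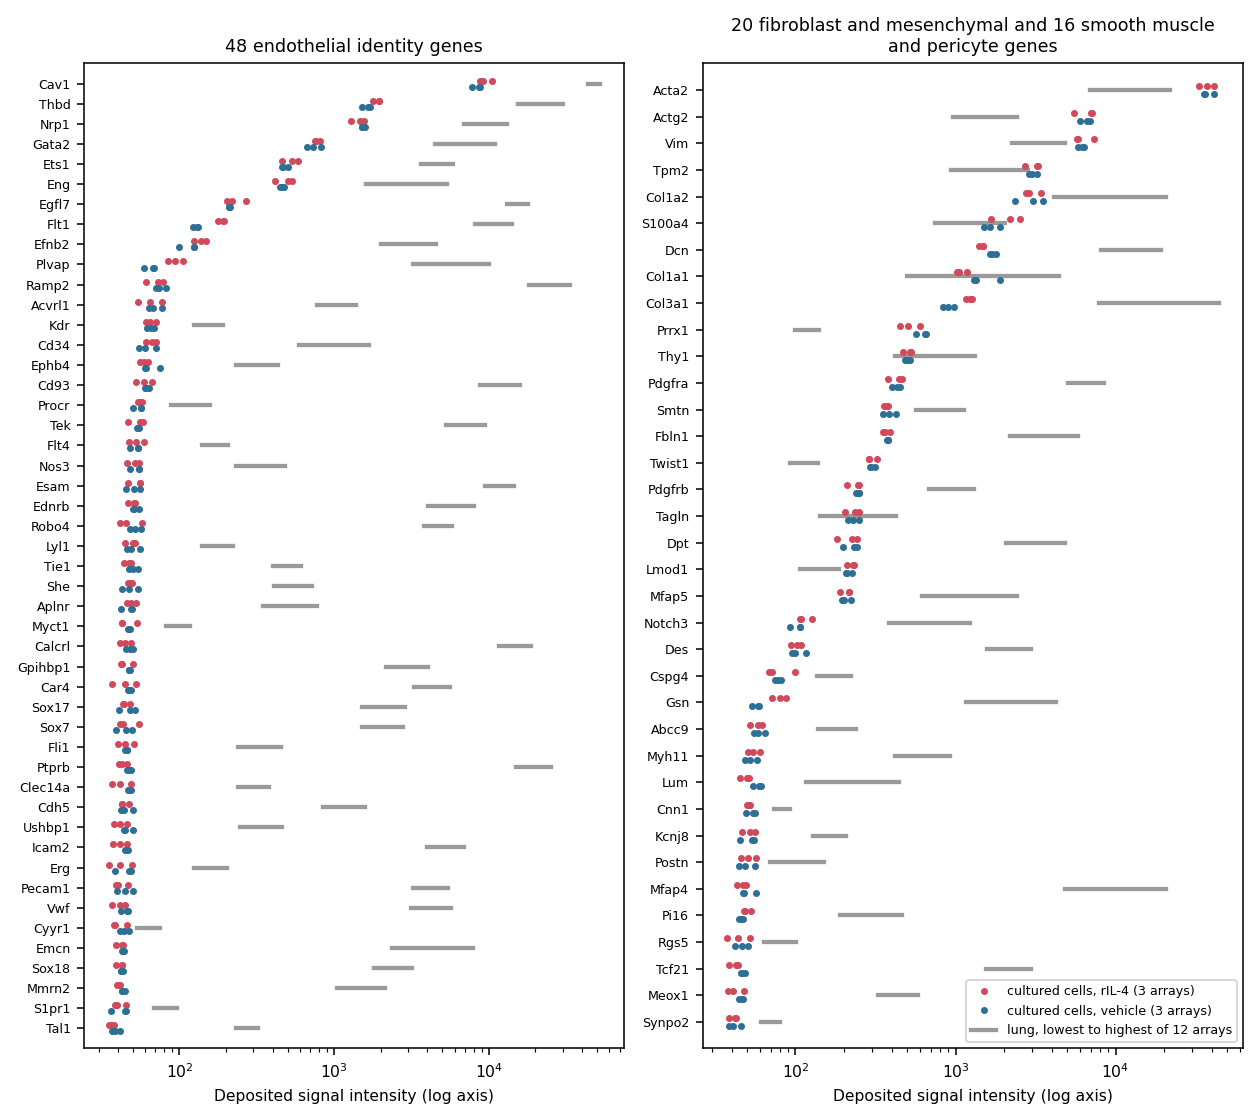
Deposited signal intensity (log axis) of marker genes, by the brightest probe of each gene, in 3 rIL-4 arrays (red) and 3 vehicle arrays (blue) of the cultured cells, with the range over 12 lung arrays in grey. Left, 48 endothelial identity genes, most of which lie near 50 units in the cells and far higher in lung; right, mesenchymal and smooth muscle genes, with Acta2 at 32996 units or more in every cell array.

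The sequences shown here are promoter windows of genes whose response to rIL-4 is described further on, taken from RefSeq (GRCm38.p6, 250 bases before to 50 after a start site). The windows of Edn1, Cd53 and Vdr hold the palindrome that STAT6 prefers, TTC and GAA with 4 bases of any kind between them, in capitals. All 3 genes rose with rIL-4, but the windows shown here were chosen from genes that passed and hold a motif. The STAT6 motif stood in windows of 8 of 67 risen genes (11.9%), 2 of 35 fallen genes (5.71%) and 6.63% of all tested genes. Shares of the other motifs are given further on.
Edn1 (chr13:42301226-42301525, + strand): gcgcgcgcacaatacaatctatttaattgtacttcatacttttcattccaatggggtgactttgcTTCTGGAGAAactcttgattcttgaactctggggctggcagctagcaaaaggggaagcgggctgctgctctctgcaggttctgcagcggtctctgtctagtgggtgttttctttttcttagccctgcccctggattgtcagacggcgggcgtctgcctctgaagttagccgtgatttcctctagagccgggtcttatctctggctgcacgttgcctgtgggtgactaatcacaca
Cd53 (chr3:106790100-106790399, - strand): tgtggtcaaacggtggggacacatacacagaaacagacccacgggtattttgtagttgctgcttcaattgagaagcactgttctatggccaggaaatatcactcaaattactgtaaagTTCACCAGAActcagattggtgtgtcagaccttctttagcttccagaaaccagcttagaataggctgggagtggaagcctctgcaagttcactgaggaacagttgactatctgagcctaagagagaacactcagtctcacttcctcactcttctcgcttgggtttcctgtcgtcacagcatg
Vdr (chr15:97908247-97908546, - strand): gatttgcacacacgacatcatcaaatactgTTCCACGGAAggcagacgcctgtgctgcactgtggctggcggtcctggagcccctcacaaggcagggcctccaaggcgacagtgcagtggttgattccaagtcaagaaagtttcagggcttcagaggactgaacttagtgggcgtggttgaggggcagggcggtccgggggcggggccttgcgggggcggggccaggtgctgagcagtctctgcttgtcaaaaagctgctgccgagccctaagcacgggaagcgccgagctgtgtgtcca
The window of Cish, a feedback inhibitor of cytokine receptors that also rose, holds the spacing that other STAT proteins prefer, TTC and GAA 3 bases apart, at 2 places.
Cish (chr9:107296409-107296708, + strand): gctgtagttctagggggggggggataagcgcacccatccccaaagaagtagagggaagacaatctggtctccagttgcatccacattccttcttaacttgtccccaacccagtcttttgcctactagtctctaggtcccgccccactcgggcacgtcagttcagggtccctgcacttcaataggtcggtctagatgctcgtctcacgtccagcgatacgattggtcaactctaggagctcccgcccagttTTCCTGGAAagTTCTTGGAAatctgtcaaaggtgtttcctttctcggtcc
The windows of Isg15, Ifit3 and Rsad2, interferon-stimulated genes that fell, hold the interferon response motif, TTTC and TTTC with 2 bases between them, in capitals, on either strand (GAAA on the opposite one). In Isg15 3 matches overlap in a single run. The window of Edn1, which rose, also holds a match to this motif, left in lower case above.
Isg15 (chr4:156200769-156201068, - strand): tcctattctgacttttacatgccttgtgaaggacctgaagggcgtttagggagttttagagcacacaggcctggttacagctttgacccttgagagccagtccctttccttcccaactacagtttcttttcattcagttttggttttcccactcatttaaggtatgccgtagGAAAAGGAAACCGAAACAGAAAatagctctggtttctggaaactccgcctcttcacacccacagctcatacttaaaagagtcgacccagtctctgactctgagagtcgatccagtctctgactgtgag
Ifit3 (chr19:34583279-34583578, + strand): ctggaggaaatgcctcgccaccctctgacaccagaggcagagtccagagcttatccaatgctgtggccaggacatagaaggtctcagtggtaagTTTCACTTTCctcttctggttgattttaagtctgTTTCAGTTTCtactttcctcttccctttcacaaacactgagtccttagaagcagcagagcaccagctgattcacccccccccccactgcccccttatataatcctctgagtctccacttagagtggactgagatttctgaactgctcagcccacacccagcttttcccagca
Rsad2 (chr12:26456403-26456702, - strand): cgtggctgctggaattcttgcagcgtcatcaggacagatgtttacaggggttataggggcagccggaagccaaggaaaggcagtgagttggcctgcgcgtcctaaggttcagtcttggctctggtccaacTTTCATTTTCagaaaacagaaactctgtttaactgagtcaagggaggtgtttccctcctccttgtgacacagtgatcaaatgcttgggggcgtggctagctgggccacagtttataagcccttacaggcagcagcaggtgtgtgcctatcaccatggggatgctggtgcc

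Of 9017 genes tested, 151 passed the test at an adjusted p under 0.05, which is 1.67%. With rIL-4, 102 genes rose (1.13%) and 49 fell (0.543%). Of these, 29 rose and 1 fell at least 2-fold, and the median size of the passing differences was 0.71 on the log2 scale. In 11 of the risen genes the probe was detected on 0 of 3 vehicle arrays. These genes entered the test only through the rIL-4 arrays, where they are high. In all 151 the rIL-4 and vehicle arrays did not overlap, as was the case for 16.4% of all genes tested. The set included 18 probes without a gene name, 14 of which rose. Across all genes the median difference was -0.01.

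The split between rises and falls depended on the scaling of the arrays. Rises made up 67.5% of passing genes with quantile normalization and 86.1% with a common median in its place. They made up 79.3% when the cells were normalized together with the lung arrays and 56.7% without background correction. All 151 genes kept their sign under these scalings. The authors' deposited log2 table differs by more than scaling. It did not match the signals for 29.5% of cell probes, including those of 30 passing genes. There rises made up 92.6%, and Rad50, Serpina12 and Tlr4 turned their sign. The number of passing genes fell to 74, 73 and 79 without vehicle array 1, 2 or 3 and to 93 without rIL-4 array 3. Of the 151 genes, 63 passed again without each of the 6 arrays in turn, 53 of them risen and 10 fallen.

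**Figure D2:**
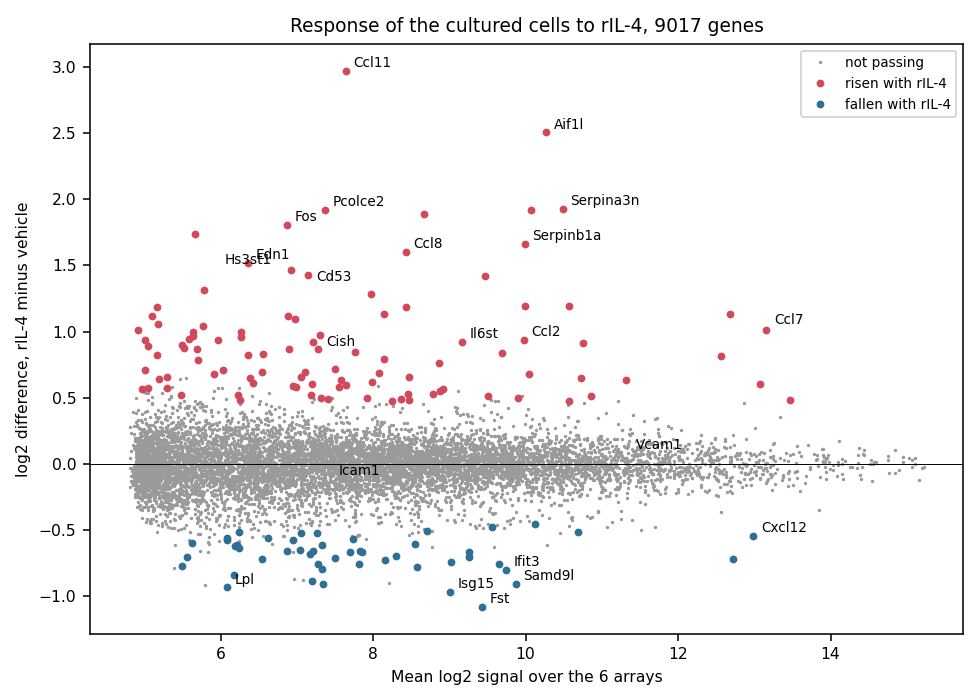
Difference between rIL-4 and vehicle cells (log2, y axis) against mean log2 signal over the 6 arrays (x axis) for 9017 genes. The 102 risen genes are red and the 49 fallen genes blue; Ccl11 and Aif1l stand highest, and Vcam1 and Icam1 lie near 0.

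The largest rise was that of a CC chemokine, and 3 other members of this family of secreted proteins, which draw leukocytes out of blood, rose with it. Of 37 chemokine genes listed, 14 were tested, 4 rose and 1 fell, beside 1.13% risen and 0.543% fallen of all genes tested. The other 9 chemokine genes did not pass, and the median over the 14 was 0.01. Ccl11, eotaxin-1, which draws eosinophils, had normalized log2 signals of 9.31, 9.05 and 9.03 in rIL-4 cells against 6.19, 6.15 and 6.13 in vehicle cells. The groups stood far apart, and every rIL-4 array was over 2 log2 units above every vehicle array. The difference was 2.97 ± 0.11 (SE), a 7.85-fold rise and the largest of all genes tested (adjusted p = 1.04e-07). A second Ccl11 probe differed by 2.58.

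Ccl8, a monocyte and eosinophil attractant, had 9.55, 8.89 and 9.24 in rIL-4 cells against 7.82, 7.46 and 7.60 in vehicle cells. It rose 3.03-fold (log2 difference 1.60 ± 0.16, adjusted p = 0.000255), and the rIL-4 arrays were more spread than the vehicle arrays. Ccl7, monocyte chemoattractant protein-3, had 13.75, 13.58 and 13.67 in rIL-4 cells against 12.58, 12.81 and 12.57 in vehicle cells. It rose 2.02-fold (1.01 ± 0.11, adjusted p = 0.000468). Ccl2, monocyte chemoattractant protein-1, had 10.57, 10.23 and 10.54 in rIL-4 cells against 9.51, 9.60 and 9.42 in vehicle cells, a 1.91-fold rise (adjusted p = 0.0015). These 4 rises passed again under each of the 16 other settings tried. Cxcl12, which holds and recruits cells through the receptor CXCR4, went the other way, with 12.61, 12.85 and 12.69 in rIL-4 cells against 13.24, 13.25 and 13.29 in vehicle cells. It fell 1.46-fold (-0.55 ± 0.11, adjusted p = 0.0257), but lost the call with a common median, with the mean of all its probes, and when any 1 array other than rIL-4 array 2 was left out. Its other 2 probes differed by -0.21 and -0.41.

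**Figure D3:**
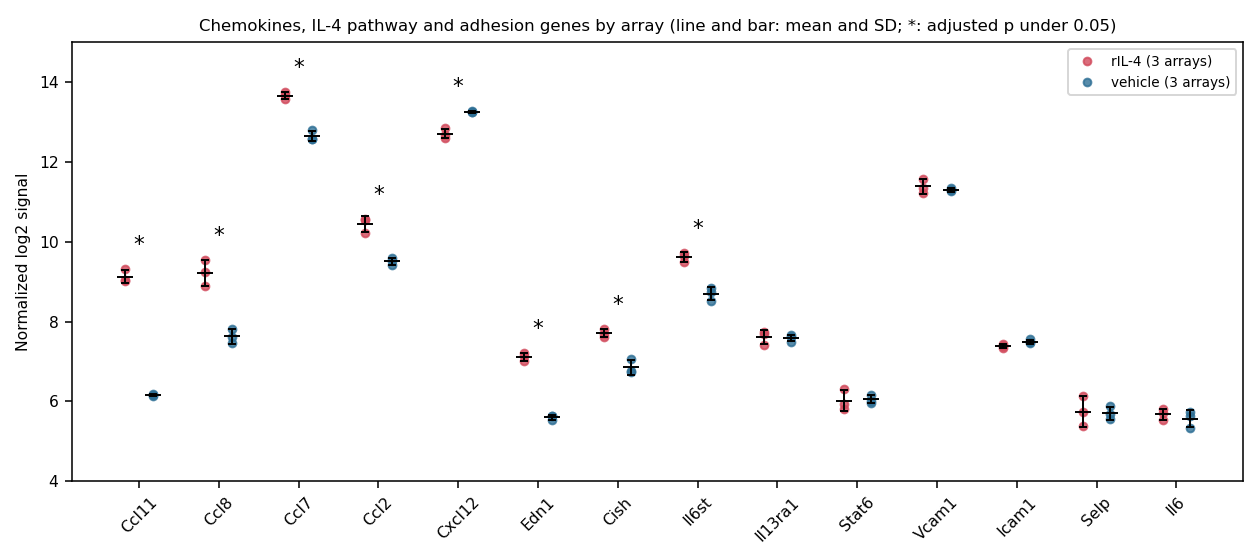
Normalized log2 signal of 14 genes in each of 3 rIL-4 arrays (red, left of each pair) and 3 vehicle arrays (blue), with the mean and SD as line and bar; a star marks an adjusted p under 0.05. The CC chemokines and Edn1 separate fully, while Vcam1, Icam1, Selp, Il6, Il13ra1 and Stat6 overlap or nearly touch.

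The list of type 2 and IL-4 target genes, chosen with earlier results of these data known, had 17 tested members. Of these 4 rose and 0 fell, beside 1.13% risen and 0.543% fallen of all genes tested. The risen members were Ccl11, Ccl8, Edn1 and Klf4, and the median of the 17 was 0.20. Ccl11 and Ccl8 are chemokines already counted above, and Klf4 is counted again among the immediate early genes. Edn1, which encodes the vasoconstrictor endothelin-1, had 7.14, 7.01 and 7.20 in rIL-4 cells against 5.63, 5.52 and 5.63 in vehicle cells. Its arrays were tight within each group, and it rose 2.87-fold (1.52 ± 0.10, adjusted p = 1.27e-05). Klf4, a transcription factor that STAT6 raises in macrophages, differed by only 0.49 ± 0.11 (adjusted p = 0.0479) and lost the call when any 1 of the 6 arrays was left out. Many well-known IL-4 targets of macrophages, among them Retnla and Arg1, were too dim in these cells to be tested.

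Of 22 tested genes of the IL-4 and IL-13 signalling pathway itself 1 rose, Cish, and 0 fell, with a median of -0.03. Over all genes tested 1.67% passed, so a count of this size is near that share. Cish, whose product dampens STAT signalling at cytokine receptors, had 7.82, 7.69 and 7.62 in rIL-4 cells against 6.74, 6.75 and 7.05 in vehicle cells, a 1.82-fold rise (0.86 ± 0.12, adjusted p = 0.00286). Stat6 averaged 6.02 ± 0.26 in rIL-4 cells and 6.04 ± 0.10 in vehicle cells (SD, n = 3 each), and its difference had a 95% interval of -0.33 to 0.27. For Il13ra1, a chain of the receptor that IL-4 shares with IL-13, the interval was -0.23 to 0.28. Socs3, another feedback inhibitor, differed by -0.01 with an interval of -0.25 to 0.23. These 3 genes did not pass, and Socs1 was too dim to be tested.

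Of 24 tested adhesion molecules that catch leukocytes on the vessel wall 0 passed in limma, with a median of 0.01. At an unadjusted p under 0.05, 3 of the 24 were higher and 1 was lower, beside 452 higher and 562 lower of all 9017 genes tested. For a list of this length a count of 0 does not stand apart from the 1.67% of all genes. Vcam1 had 11.22, 11.36 and 11.58 in rIL-4 cells against 11.26, 11.35 and 11.30 in vehicle cells. The vehicle values lay inside the range of the rIL-4 values, and the 95% interval of the difference ran from -0.17 to 0.34. Icam1, which binds leukocyte integrins, averaged 7.38 ± 0.05 in rIL-4 cells and 7.50 ± 0.05 in vehicle cells (SD, n = 3 each), a difference of -0.11 with an interval of -0.33 to 0.11. Selp, P-selectin, was dim and spread widely, and its interval was -0.34 to 0.42. Sele was too dim to be tested. Among cytokines and their receptors 1 of 24 tested genes rose and 0 fell, beside 1.13% and 0.543% of all genes tested. The risen gene was Il6st, the shared signalling chain of the IL-6 family. It had 9.49, 9.66 and 9.72 in rIL-4 cells against 8.74, 8.53 and 8.84 in vehicle cells (0.92 ± 0.12, adjusted p = 0.0015). Il6 itself differed by 0.11, with an interval of -0.18 to 0.40.

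Genes of the vessel wall moved in a few places in these cells, whose endothelial label the markers did not bear out. Of 23 tested genes of vascular tone and thrombosis 2 rose, Edn1 and Serpinb2, and 0 fell, beside 1.13% and 0.543% of all genes tested. Serpinb2, plasminogen activator inhibitor-2, was detected on all 3 rIL-4 arrays and on 0 of 3 vehicle arrays, with means of 5.76 ± 0.27 and 4.57 ± 0.10, so it was at least 1.78-fold higher (adjusted p = 0.000781). It is among the 11 genes tested only through the rIL-4 arrays, and no weight is put on its part in the counts of lists. Such a bound sets the bright group against the lowest signal that counts as detected. Nos3, endothelial nitric oxide synthase, differed by -0.15 (interval -0.46 to 0.16). Flt1, a receptor of vascular endothelial growth factor, had 7.17, 7.25 and 7.32 in rIL-4 cells against 6.69, 6.70 and 6.58 in vehicle cells, a 1.5-fold rise (adjusted p = 0.0136) that lost the call when any 1 vehicle array or rIL-4 array 3 was left out. Plvap, which forms the diaphragms of capillary pores, rose by 0.88 ± 0.13 (adjusted p = 0.00442), a call lost without the filter on detection (adjusted p = 0.0528). Vegfa and Kdr did not pass, with intervals of -0.51 to 0.04 and -0.28 to 0.32.

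Marker lists of other cell types were read beside these changes. The summed signal of the endothelial list was 16347 to 18360 in rIL-4 cells and 14700 to 16298 in vehicle cells, with 30 of its members detected on 0 arrays and Cav1 alone giving 8743 to 10489 in rIL-4 cells and 7727 to 8754 in vehicle cells. The fibroblast list summed to 17391 to 19196 in rIL-4 cells and 17589 to 18265 in vehicle cells. Of its 14 tested members 11 were below 0 (78.6%, against 52.2% of all genes), with a median of -0.125. Averaged over the 14, each array's deviation from the gene means was -0.07, -0.03 and -0.02 in rIL-4 cells and 0.05, 0.03 and 0.05 in vehicle cells. These did not overlap, as in 12 of the 31 lists. Only 1 of the 14 passed, the actin-severing protein Gsn, which rose. Gsn was detected on 0 of 3 vehicle arrays, entered the test only through the rIL-4 arrays and was at least 1.56-fold higher. It lost the call without the filter on detection (adjusted p = 0.11) and without vehicle array 1 or 3 or rIL-4 array 2 or 3. The smooth muscle list summed to 42849 to 53485 in rIL-4 cells and 46307 to 52988 in vehicle cells, and 8 of its 10 tested members were below 0. The epithelial list summed to 11444 to 12886 in rIL-4 cells and 10077 to 11206 in vehicle cells. Pdpn, which lymphatic endothelium also expresses, alone gave 9290 to 10759 in rIL-4 cells and 8172 to 9327 in vehicle cells. The list had 11 of 21 genes, including all 4 surfactant protein genes, detected on 0 arrays. Its passing member was Krt19, a keratin also found in mesothelium, with 6.07, 6.08 and 6.19 in rIL-4 cells against 5.18, 5.09 and 5.17 in vehicle cells (0.97 ± 0.10, adjusted p = 0.000333). Krt19 was also the passing member of the mesothelial list, of which 4 genes were tested, 0 lay below 0 and the median was 0.30. That list summed to 486 to 540 in rIL-4 cells and 466 to 474 in vehicle cells, with Wt1, Lrrn4, Bnc1 and Calb2 detected on 0 arrays. Its mean deviations were 0.19, 0.21 and 0.22 in rIL-4 cells and -0.25, -0.15 and -0.22 in vehicle cells. The macrophage list summed to 1281 to 1510 in rIL-4 cells and 1382 to 1442 in vehicle cells, with C1qa, C1qb, C1qc, Tyrobp and Ptprc detected on 0 arrays. In bulk RNA a change in the share of a cell type and a change within cells cannot be told apart, and the part of either in these results was not tested.

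Among the other largest rises, Serpina3n, an inhibitor of serine proteases such as granzyme B, had 11.51, 11.53 and 11.31 in rIL-4 cells against 9.52, 9.46 and 9.59 in vehicle cells, a 3.79-fold rise (adjusted p = 3.08e-06). Pcolce2, which enhances the trimming of procollagens, had 8.36, 8.30 and 8.32 in rIL-4 cells against 6.62, 6.40 and 6.20 in vehicle cells, a 3.78-fold rise. The rIL-4 arrays of Pcolce2 were almost equal while its vehicle arrays were more spread. Serpinb1a, an inhibitor of neutrophil elastase, rose 3.16-fold. Hs3st1, a sulfotransferase that gives heparan sulfate its antithrombin-binding site, rose 2.77-fold. Both passed again under each other setting, as did Serpina3n and Pcolce2.

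Aif1l, an actin-binding relative of the macrophage protein Aif1, was the second-largest rise, with 11.37, 11.70 and 11.49 in rIL-4 cells against 8.91, 9.00 and 9.13 in vehicle cells (2.51 ± 0.12, adjusted p = 7.11e-07). Cd53, a tetraspanin known from leukocytes, had 7.82, 7.77 and 7.99 in rIL-4 cells against 6.34, 6.54 and 6.41 in vehicle cells, a 2.69-fold rise (adjusted p = 3.01e-05). Ptprc, which marks all leukocytes, was detected on 0 of the 6 arrays. Diras2, a small Ras-family GTPase, rose 2.68-fold, and Tmem158, a membrane protein induced by Ras, rose 2.48-fold. Tmem158 was not detected on all 6 arrays, and its log2 difference ranged from 0.81 to 1.44 under the other settings. The largest rises also held 3 unnamed probes, at 1.92, 1.89 and 1.74 on the log2 scale, the last of them likewise not detected on all 6 arrays.

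Immediate early genes, which cells switch on within minutes of a stimulus, had 16 tested members. Of these 4 rose and 0 fell, beside 1.13% and 0.543% of all genes tested. The median of the 16 was 0.06. Fos, a subunit of the AP-1 transcription factor, had 7.79, 7.47 and 8.05 in rIL-4 cells against 6.03, 6.06 and 5.80 in vehicle cells (1.81 ± 0.15, adjusted p = 4.54e-05). Egr1, a zinc-finger transcription factor, rose by 0.65 ± 0.11 (adjusted p = 0.0127). Jun, the partner of Fos, rose by 0.49 ± 0.11 and Klf4 by the amount given above. Fos passed without each array in turn, whereas Jun and Klf4 lost the call when any 1 array was left out, and Egr1 when any array other than rIL-4 array 1 or 2 was.

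Several interferon-stimulated genes, which carry the antiviral state, fell. Of 26 tested, 7 fell and 0 rose, against 0.543% of all genes fallen. The differences of 25 of the 26 were below 0 (96.2%, against 52.2% of all genes), and the median was -0.21. Isg15, a ubiquitin-like protein, had 8.60, 8.12 and 8.85 in rIL-4 cells against 9.64, 9.37 and 9.46 in vehicle cells, and fell 1.96-fold (-0.97 ± 0.17, adjusted p = 0.0121). The rIL-4 arrays were spread more widely than the vehicle arrays, with rIL-4 array 2 lowest. Ifit3, an antiviral RNA-binding scaffold, had 9.30, 9.05 and 9.69 in rIL-4 cells against 10.17, 9.95 and 10.32 in vehicle cells (-0.81 ± 0.16, adjusted p = 0.0283).

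Eif2ak2, the double-stranded RNA kinase PKR, had 9.09, 9.31 and 9.40 in rIL-4 cells against 10.00, 9.99 and 10.08 in vehicle cells (-0.76 ± 0.11, adjusted p = 0.00471). Rsad2, the antiviral enzyme viperin, fell by 0.70, Oasl2, an oligoadenylate synthetase-like protein, by 0.66, Usp18, which removes Isg15 from proteins, by 0.66, and Igtp, an interferon-inducible GTPase, by 0.52. Samd9l, an interferon-induced gene outside the list, fell by 0.91 (adjusted p = 0.00431). Bst2 and Gbp3, named after their values were seen, differed by -0.90 and -0.67 without passing. Averaged over the 26 genes, each array's deviation from the gene means was -0.19, -0.26 and -0.09 in rIL-4 cells and 0.22, 0.15 and 0.16 in vehicle cells, and the groups did not overlap. The same was so for 12 of the 31 lists.

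The number of interferon genes that passed changed with single arrays and settings. It was 1 without vehicle array 1, 3 without vehicle array 2 or 3, and 4 without rIL-4 array 2. It was 2 without the filter on detection and 3 when the cells were normalized with the lung arrays. Eif2ak2 passed under all 16 other settings. The number of list members below 0 was lowest, at 19 of 26, in the authors' deposited log2 table, which did not match the signals for 29.5% of cell probes.

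**Figure D4:**
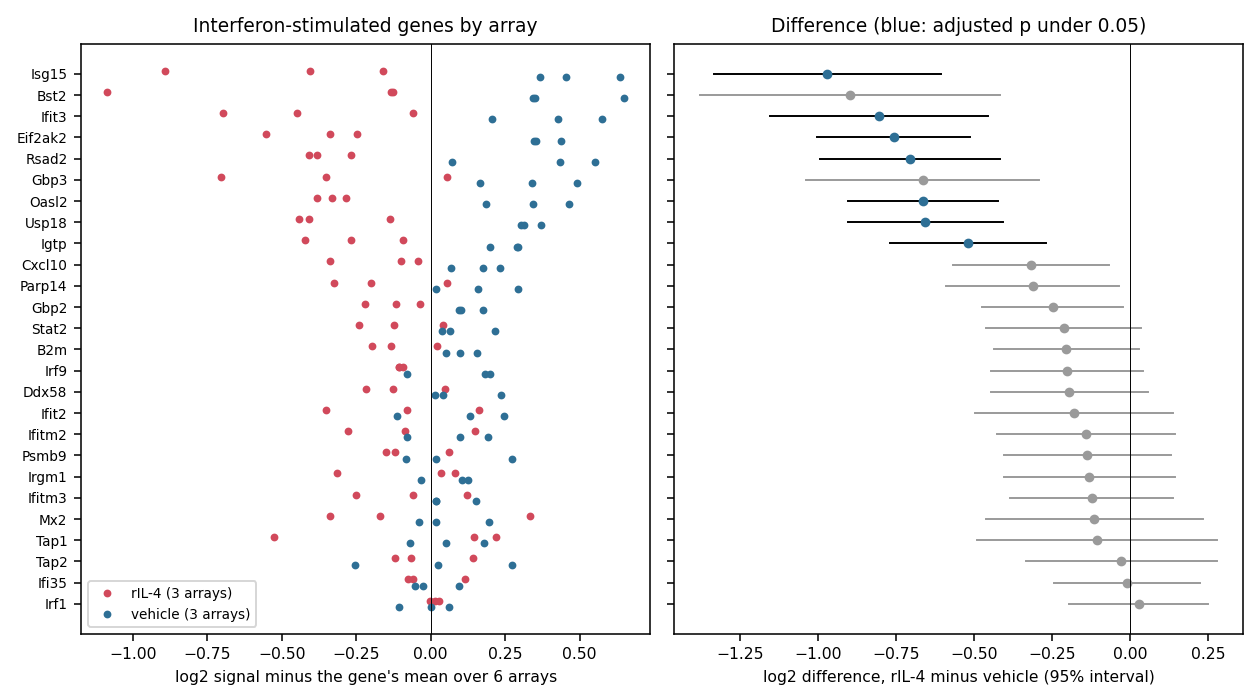
The 26 tested interferon-stimulated genes. Left, log2 signal minus each gene's mean over 6 arrays for 3 rIL-4 arrays (red) and 3 vehicle arrays (blue); right, the log2 difference (rIL-4 minus vehicle) with its 95% interval, in blue for the 7 genes that fell at an adjusted p under 0.05, and 25 of the 26 points lie left of 0.

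Growth factor signalling of the BMP and TGF-beta family had 30 tested genes, of which 0 rose and 3 fell, with a median of -0.06. Of all genes tested 1.13% rose and 0.543% fell. Fst, follistatin, which traps activins, had 8.80, 8.81 and 9.03 in rIL-4 cells against 9.94, 10.06 and 9.91 in vehicle cells. It was the largest fall of all genes tested, at 2.12-fold (-1.08 ± 0.11, adjusted p = 0.000266), and passed under each other setting. Inhba, the activin A subunit that Fst binds, had 8.01, 8.08 and 8.48 in rIL-4 cells against 8.92, 9.10 and 8.88 in vehicle cells (-0.78 ± 0.14, adjusted p = 0.0136). Tgfb2, a ligand of the TGF-beta receptors, fell by 0.61. Inhba lost the call without vehicle array 1 or 2 or rIL-4 array 2, and Tgfb2 without any 1 vehicle array or rIL-4 array 3. Bmpr2 was too dim to be tested.

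In the extracellular matrix 1 of 35 tested genes rose and 2 fell, beside 1.13% and 0.543% of all genes tested. The median of the 35 was -0.09. Has2, a hyaluronan synthase, had 5.02, 5.10 and 5.21 in rIL-4 cells against 5.80, 6.09 and 5.75 in vehicle cells (-0.77 ± 0.12, adjusted p = 0.00642). Thbs2, an antiangiogenic thrombospondin, fell by 0.52 and Col6a1, a collagen VI chain, rose by 0.51. Col6a1 lost the call when any 1 of the 6 arrays was left out, and Thbs2 when any array other than rIL-4 array 2 was. Of 23 tested proteases and inhibitors 3 rose and 0 fell, beside 1.13% and 0.543% of all genes tested. The risen ones were Serpina3n, Timp2 and Serpinb2, which was tested only through the rIL-4 arrays. Timp2, an inhibitor of matrix metalloproteinases, rose by 0.48 and lost the call when any 1 of the 6 arrays was left out.

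Further large falls were found in Lpl, lipoprotein lipase (-0.94 ± 0.14, adjusted p = 0.00559), Prkg2, a cGMP-dependent protein kinase (-0.91), and Slc40a1, the iron exporter ferroportin (-0.80). Slc40a1 had 6.89, 7.07 and 6.83 in rIL-4 cells against 7.73, 7.86 and 7.58 in vehicle cells, with no overlap. The other named genes among the 15 largest falls were Hmgn5, a nucleosome-binding protein, at -0.89, the zinc-finger gene Zfp157 at -0.84, the chromatin protein Dek at -0.76 and the DNA repair protein Rad50 at -0.76. Rad50 turned to 0.033 (adjusted p = 0.864) in the deposited log2 table and lost the call without any 1 vehicle array. Hmgn5 lost it without vehicle array 2 or 3 or rIL-4 array 3, Zfp157 without vehicle array 3, and Dek without vehicle array 1 or 2.

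Across all lists, 501 distinct genes were tested, of which 19 rose and 13 fell (6.39%, against 1.67% of all genes, for lists chosen with earlier results known). Of the risen, 2, Serpinb2 and Gsn, were detected on 0 of 3 vehicle arrays. They were tested only through the rIL-4 arrays, and no weight is put on their part in this count. The 32 passing list genes became 15 without vehicle array 1 and 18 without vehicle array 2 or 3. There were 15 lists with 0 passing members, among them the cell cycle (36 tested), glycolysis and HIF targets (29), sterol and fatty acid synthesis (23), endoplasmic reticulum stress (20), antioxidant genes (26) and antigen presentation (15). At 1.67% of all genes, counts of 0 in lists of these lengths do not stand apart. The 1 passing gene of 25 tested in the NF-kB list was Ccl2.

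**Figure D5:**
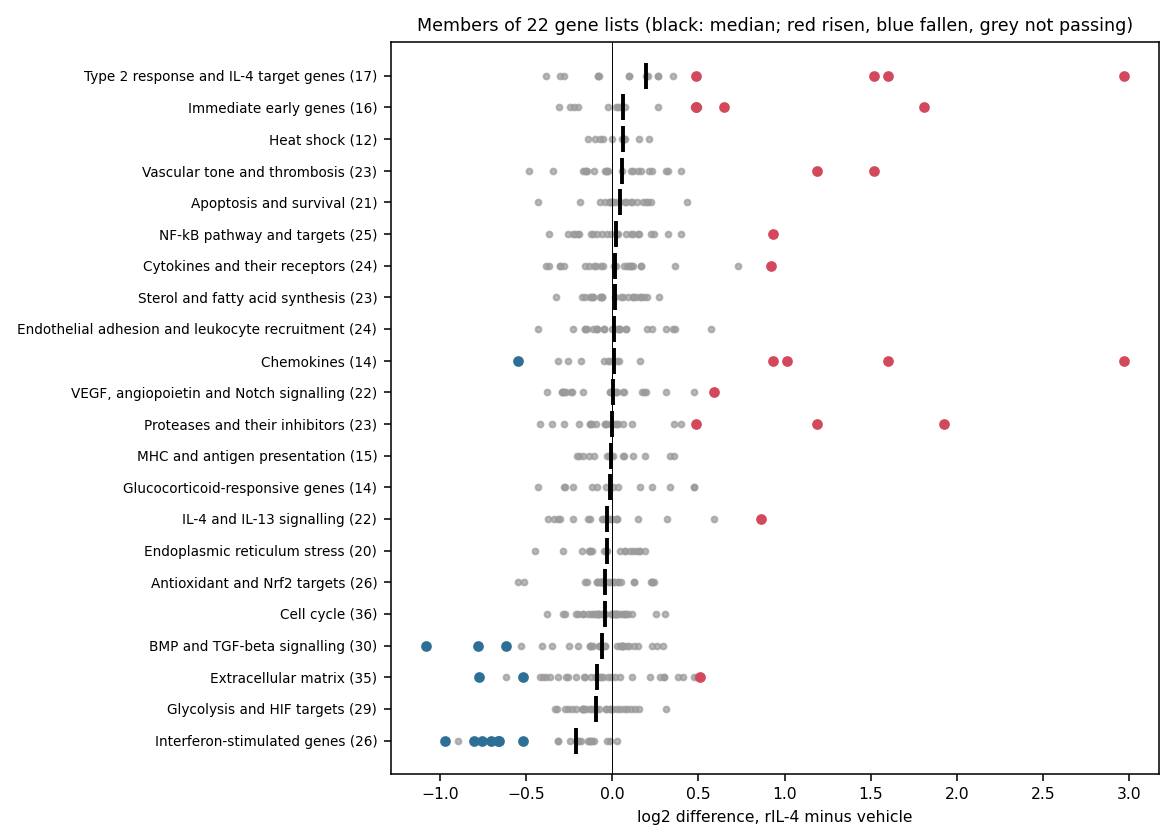
Log2 difference (rIL-4 minus vehicle, x axis) of the tested members of 22 pathway lists, with the number tested in brackets and the median as a black bar. Red points rose, blue points fell and grey points did not pass; the interferon list has the lowest median, -0.21, and the type 2 list the highest, 0.20.

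Promoter windows were found for 67 of 88 named risen genes, 35 of 45 named fallen genes and 6814 of 8324 named genes tested. Each motif was searched on both strands. The STAT6 motif (TTC, 4 bases, GAA) stood in windows of 8 risen genes (11.9%, exact 95% Clopper-Pearson interval 5.3% to 22.2%, for counting error only), 2 fallen genes (5.71%, 0.7% to 19.2%) and 6.63% of all tested genes. The motif of other STAT proteins (TTC, 3 bases, GAA) stood in 11.9% of risen genes, 20% of fallen genes and 8.25% of all tested genes. The interferon response motif (TTTC, 2 bases, TTTC) stood in 1 risen gene, Edn1 (1.49%), 7 fallen genes (20%, 8.44% to 36.9%) and 3.65% of all tested genes. It was present in 5 of 6 fallen genes of the interferon list with a window and in 15 of 22 tested ones. The NF-kB motif (GGG, 3 bases, TTCC) stood in 5.97% of risen, 8.57% of fallen and 7.18% of all tested genes. Over all 32851 windows of the table the shares were 6.95%, 8.3%, 3.44% and 5.56%, in the same order of motifs. These are matches of letters only, in short windows, and matches of different motifs can overlap. Ccl11, Ccl2, Ccl7 and Fst had no entry in the table.

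Of the 102 genes that rose in the cells, 92 were tested in lung, where 18 were higher (19.6%) and 9 lower (9.78%) in wild-type mice after 4 days at 10% oxygen than in room air, against 7.48% and 4.32% of all genes tested in lung. Of 48 genes that fell in the cells and were tested in lung, 9 were higher (18.8%) and 3 lower (6.25%), beside 19.6% and 9.78% of the risen genes, and the 2 directions were not tested against each other. In IL-4 knockout against wild-type lung in room air, 8 of the 92 risen genes were higher (8.70%) and 9 lower (9.78%), and 2 of the 48 fallen genes were higher and 2 lower (4.17% each), against 4.09% and 2.96% of all genes. At low oxygen, knockout against wild type gave 0 in either direction for both sets by limma, against 0% higher and 0.0557% lower of all genes. At an unadjusted p under 0.05, 2 risen genes were higher and 10 lower there, and 1 fallen gene was higher and 2 lower. The share of all lung genes at that threshold was not counted, so these counts are not read as a result about the cell genes. These comparisons share samples. Ccl8 averaged 10.43 ± 0.35 in hypoxic and 7.36 ± 0.18 in normoxic wild-type lung, while Ccl11 averaged 7.94 ± 0.36 and 7.88 ± 0.16 (SD, n = 3 each) and Edn1 was lower in hypoxia by 0.74.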

How the data were processed

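RNA of 6 cell samples and 12 lungs was hybridised to 1 array each. The authors deposited, per the file headers, signal intensity and a detection p-value for each probe and array. A deposited table of log2 values did not match the signals for 7582 cell probes (29.5%, tolerance 0.02 log2), so it served only as an alternative. Over these probes the correlation of the cells with mean lung was 0.802 from the signals and 0.366 from the log2 table. Over matched probes it was 0.804. For the lung arrays 0 probes failed to match. The submitters' processing notes name BeadStudio; its version, the chip layout and the genome build are not given in the sources used here.

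In R 4.3.3 with limma 3.58.1, neqc corrected the background, added an offset of 16, which compresses differences of dim probes, quantile normalized the 6 cell arrays and took log2. Of 25697 probes, 11947 stayed, those whose detection p lay under 0.05 on 3 or more arrays. The brightest probe stood for each gene, named from the platform annotation, and 693 unnamed probes were tested singly. lmFit and eBayes compared rIL-4 with vehicle, and p-values were adjusted by Benjamini-Hochberg over 9017 genes. The lung arrays were fitted separately. Scripts were tested on simulated data. The number of arrays limits the precision. Probes can read near-identical copies, as in the Prl2c, Serpina3, Serpinb and Aldh1a families.

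The members and the 31 gene lists were chosen with earlier results of these data known. Named genes were the 15 largest rises and falls, up to 5 passing members of each list, and genes of the study. Alternatives were other background corrections, normalizations, filters, probe rules, weights and arrays left out.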

Additional observations from a re-analysis of the deposited data

How the results depend on the processing

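No paired analysis was possible because the labels number the vehicle and rIL-4 samples differently, and numbers given in accession order pair nothing. Of 49 named genes that passed, 24 did so under every one of 16 other settings that tested them, and of 10 named genes that did not pass 0 did so under any. Passing genes, risen and fallen, numbered 151, 102 and 49 in the report. They numbered 87 in all and 18 fallen when normalized with the lung arrays, 298, 276 and 22 in the deposited log2 table, and 75, 61 and 14 without a filter on detection. With array weights 257 passed and 105 fell, and fallen genes numbered 90 without background correction, 88 with an offset of 50, 23 with a common median and 88 with a trended, robust prior. List genes passing numbered 20 with the lung arrays and 17 without the filter, and fallen interferon genes 3 and 2. The cause of these differences was not tested, beyond the larger number of genes adjusted over without a filter. Without 1 array at a time, passing genes ranged over 73 to 136, risen genes 57 to 97, fallen genes 13 to 39, list genes 15 to 32, fallen interferon genes 1 to 7, risen chemokines 4 to 4, and lung genes 14 to 19. Rad50 reversed to 0.033 in the log2 table, which did not match the signals for 29.5% of cell probes. At an unadjusted p under 0.05, 1014 genes differed. Dim probes, near the lowest detected log2 signal of 4.89 to 4.97, limit what the arrays show.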

Other observations

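Gene families that recurred among the passing genes were counted after their values were seen, and carry no test. Beside these counts, 1.13% of all genes tested rose and 0.543% fell. Of 11 serpins tested, protease inhibitors and their relatives, 5 rose and 0 fell. Serpinb2 was tested only through the rIL-4 arrays, and no weight is put on its part in this count. Among genes detected on all 6 arrays 4 serpins passed. Besides Serpina3n, Serpinb1a and Serpinb2 these were Serpinb9g (0.99 ± 0.12) and Serpina12 (0.57 ± 0.11), and Serpina12 turned its sign in the deposited log2 table and lost the call without any 1 array other than rIL-4 array 3. Of 6 insulin-like growth factor binding proteins tested, 3 rose and 0 fell. Igfbp6 had 10.34, 9.92 and 10.05 in rIL-4 cells against 9.17, 9.30 and 9.33 in vehicle cells. Igfbp5 rose by 0.82 ± 0.10 and Igfbp4 by 0.58 ± 0.13, and Igfbp4 lost the call when any 1 of the 6 arrays was left out. The 3 tested probes of the Prl2c family, prolactin-like proteins also called proliferins, rose by 1.19, 1.19 and 1.06. Their genes are near-identical copies, so the probes may not tell them apart. Prl2c1 was undetected in vehicle cells (at least 1.72-fold higher). It was thus tested only through the rIL-4 arrays, and no weight is put on its part in this count. Prl2c1 also lost the call without vehicle array 1 or 3 or rIL-4 array 1 or 3. Among genes detected on all 6 arrays 2 of the family passed.

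Some genes that handle retinoids, steroids or vitamin D, also picked after their values were seen, rose, though most of their relatives did not pass. Of 6 retinol dehydrogenases tested 1 rose, with a median of 0.14, and of 13 aldehyde dehydrogenases 2 rose, with a median of -0.03, and 0 fell in either family. Rdh5, a retinol dehydrogenase, had 8.98, 8.70 and 8.44 in rIL-4 cells against 7.75, 7.56 and 7.41 in vehicle cells. Aldh1a1, which makes retinoic acid, had 11.27, 11.17 and 11.20 in rIL-4 cells against 10.25, 10.45 and 10.20 in vehicle cells (0.91 ± 0.11, adjusted p = 0.000873). Hsd11b1, which regenerates active glucocorticoid, rose by 1.10 ± 0.11 on its brightest probe and by 0.97 and 0.99 on its other probes. Vdr, the vitamin D receptor, rose by 0.92, 0.78 and 0.68 on 3 probes. Of 14 tested glucocorticoid-responsive genes 0 rose and 0 fell. Of 4 tested genes for structural maintenance of chromosomes, subunits of cohesin and related complexes, 2 fell, Smc3 by 0.70 and Smc6 by 0.62. Smc6 did not pass without any 1 vehicle array or without rIL-4 array 1 or 3, and neither gene passed in the deposited log2 table.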
